A study of Mus musculus with 10 samples.

Results

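Slpi, Wfdc1, Wfdc2 and Wfdc15b were compared between the kidneys of 5 mice on a control diet and 5 mice under calorie restriction. These 4 genes, of 18193 named genes on the array, encode proteins with whey acidic protein (WAP) domains. All mice were male C57BL/6 animals aged 30 months, with 1 mouse per array, and bulk kidney was the tissue in both diets. How strong the restriction was, when it began and what the diets held is not stated in the labels used. The members were chosen by family name and by gene symbol, from earlier results of this same diet comparison in which Slpi stood out as lower, so their diet differences are given as a description without a test. Each gene was represented by 1 probe set that names it alone.

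A WAP domain is a short secreted fold held together by disulfide bridges, and many proteins that carry it inhibit serine proteases. Slpi, the secretory leukocyte protease inhibitor, blocks neutrophil elastase and cathepsin G, dampens nuclear factor kappa B (NF-kB) signalling, and is made by epithelia and by leukocytes. Wfdc2, also called HE4, is made by epithelial cells, including those of the distal kidney tubule, and has been studied in kidney fibrosis as an inhibitor of proteases such as Prss23. Wfdc1, also called ps20, was first described as a growth-inhibiting protein of prostate stroma, and Wfdc15b is a small secreted member of the family.

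Slpi, Wfdc2 and Wfdc15b lie near each other on mouse chromosome 2. Their upstream sequences are shown because the 3 genes share a locus and had unlike values across the diets. RefSeq sequences for GRCm38.p6 covered these 3 of the 4 members. Each run below gives the 250 bases before the annotated start, 5′ to 3′ on the strand of the gene. Slpi is at chr2:164356508-164356757 on the minus strand, Wfdc2 at chr2:164562465-164562714 on the plus strand and Wfdc15b at chr2:164221664-164221913 on the minus strand. Capitals mark matches to 5 motifs that were chosen after the sequences were seen.
Slpi: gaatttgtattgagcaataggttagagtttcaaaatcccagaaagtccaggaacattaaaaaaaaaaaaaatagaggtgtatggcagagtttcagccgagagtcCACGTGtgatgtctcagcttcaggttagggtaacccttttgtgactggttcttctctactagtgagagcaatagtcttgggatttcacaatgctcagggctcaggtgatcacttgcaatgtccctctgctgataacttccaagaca
Wfdc2: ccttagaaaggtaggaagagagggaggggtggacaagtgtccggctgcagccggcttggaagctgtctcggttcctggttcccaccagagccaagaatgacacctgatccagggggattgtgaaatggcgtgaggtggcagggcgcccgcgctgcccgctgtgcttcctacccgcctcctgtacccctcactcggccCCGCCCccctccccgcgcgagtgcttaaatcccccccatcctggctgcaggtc
Wfdc15b: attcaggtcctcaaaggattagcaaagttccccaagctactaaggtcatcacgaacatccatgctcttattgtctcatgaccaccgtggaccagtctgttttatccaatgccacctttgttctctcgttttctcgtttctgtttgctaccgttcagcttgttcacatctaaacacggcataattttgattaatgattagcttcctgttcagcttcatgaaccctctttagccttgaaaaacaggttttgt

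The Slpi window held the E-box CACGTG, the letters bound by several basic helix-loop-helix factors, 146 to 141 bases before the start. Of 27025 promoter windows of this length, 6.05% held that motif. The Wfdc2 window held a GC box, GGGCGG, on the opposite strand 53 to 48 bases before the start, as did 32.94% of all windows on either strand. The Wfdc15b window held none of the 5. Both strands were searched, also for the TATA box TATAAA (12.97% of windows), for the AP-1 site written TGACTCA or TGAGTCA (4.43%) and for the NF-kB consensus (3.75%), and no match to these 3 was found in the letters of the 3 windows. The Wfdc2 window had 64.8% G and C bases, against 42.0% for Slpi, 41.6% for Wfdc15b and a median of 52.0% over all windows. These matches describe the letters and were not tested for any function.

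The arrays gave the authors' MAS5 signal, a linear intensity, with a median of 115 to 136 per array. Of 14 kidney markers 13 were measured, and all 13 exceeded the median on each of the 10 arrays. Of the proximal tubule markers, Kap, Slc5a2 and Slc34a1 were higher under calorie restriction without overlap. Their log2 differences were 0.74 ± 0.11, 0.38 ± 0.075 and 0.39 ± 0.081 (adjusted p = 0.0114, 0.0198 and 0.0213 in limma). After quantile normalization these differences were 0.40, 0.25 and 0.09 and only Kap passed. Without controls 4 and 5, 0 probe sets passed, so Kap did not pass either, at a log2 difference of 0.76. Slc5a2 and Slc34a1 also lost their calls without control 2 or calorie-restricted replicate 1, and Slc34a1 without control 4 or calorie-restricted replicate 2 or 3. Lrp2 and Cubn, also proximal tubule markers, differed by 0.16 ± 0.14 and 0.38 ± 0.11 (adjusted p = 0.490 and 0.0549 in limma). Neither passed, and the diets overlapped for Lrp2. Over all 12196 tested genes 3.08% were higher past the threshold and 913 did not overlap. Among all probe sets, tested or not, 4.44% did not overlap. The log2 ratio of 3' to 5' signal of Gapdh and Actb, which rises with shorter RNA, ran from 0.761 to 1.391 in the control mice and from 1.162 to 2.209 in the calorie-restricted mice. Calorie-restricted replicates 1, 2 and 3 were above all controls, and among the controls replicates 4 and 5 had the highest ratios, 1.391 and 1.249. In bulk kidney, fewer cells of a type and less RNA per cell cannot be told apart.

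Slpi was lower in every calorie-restricted kidney than in any control kidney. Its signal in control replicates 1 to 5 was 1453.9, 2720.3, 1314.2, 4903.1 and 9501.9. In calorie-restricted replicates 1 to 5 it was 786.3, 255.8, 524.7, 410.6 and 477.0. Controls 4 and 5 were the highest of all 10 mice, and the gap between the groups lay between control 3 and calorie-restricted replicate 1. Group means were 3979 ± 3407 in control and 491 ± 194 under calorie restriction (SD, n = 5). The geometric means differed 6.51-fold, a log2 difference of -2.70 ± 0.46 (calorie restricted minus control, standard error from limma).

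The control mice differed from each other in Slpi by more than most other transcripts did. The highest control was 7.23 times the lowest, against 3.07 times within the calorie-restricted group. The SD of log2 signal was 1.20 in control and 0.59 under calorie restriction (n = 5). Among the 22519 tested probe sets 99.70% had a smaller SD in the control group and 94.40% a smaller one in the calorie-restricted group, where the medians of all were 0.223 and 0.244. Slpi therefore had a wide spread in both diets, and its control mean rested largely on 2 mice. Without controls 4 and 5 the log2 difference was -1.91 ± 0.32, and over replicates 4 and 5 of each group alone it was -3.95 ± 0.28. Adjusted for the 3' to 5' ratio in the fit it was -3.31 ± 0.60. Calorie-restricted replicates 1, 2 and 3 had ratios above all controls and Slpi below all controls, and replicates 4 and 5 had ratios of 1.24 and 1.16 with Slpi signals of 410.6 and 477.0. The part of RNA quality in the Slpi difference was not tested.

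**Figure D1:**
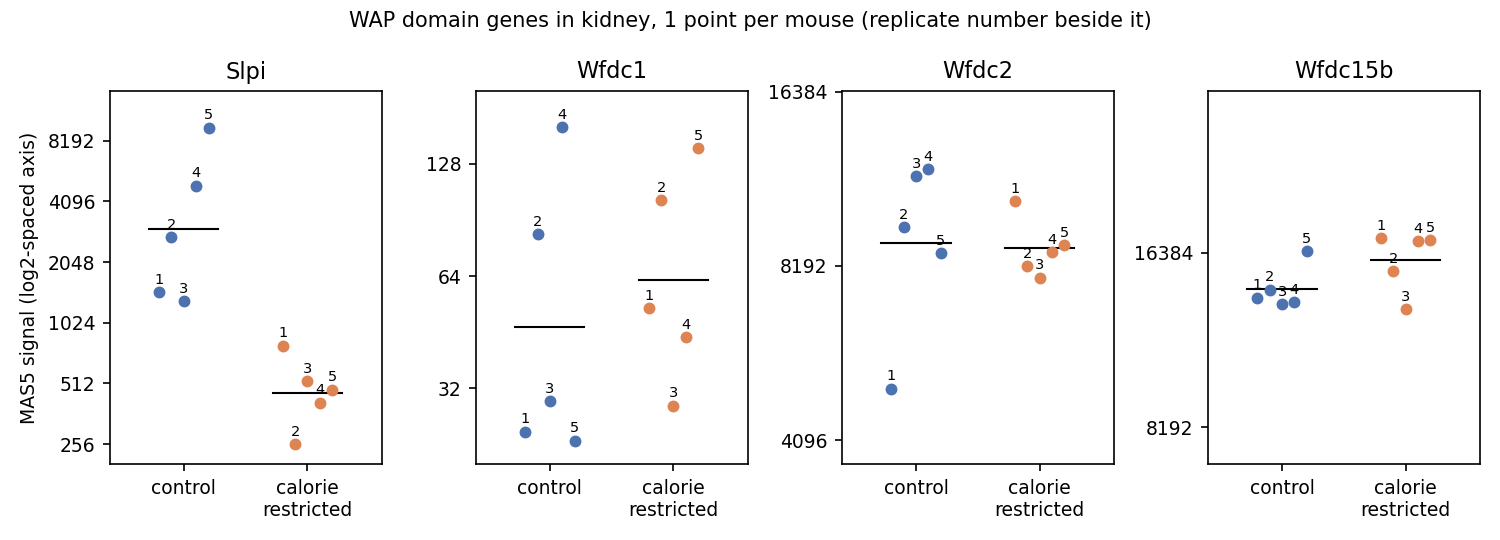
MAS5 signal of Slpi, Wfdc1, Wfdc2 and Wfdc15b on a log2-spaced axis, 1 point per mouse with its replicate number, bars at the geometric mean of 5 mice. Each panel has its own axis range. The Slpi groups do not overlap (lowest control 1314.2, highest calorie-restricted 786.3), while those of the other 3 genes do.

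Wfdc2 had a bright signal in all 10 kidneys and its groups overlapped. The signal in control replicates 1 to 5 was 5031.1, 9556.5, 11697.1, 12048.1 and 8621.8. In calorie-restricted replicates 1 to 5 it was 10610.9, 8187.2, 7819.1, 8652.5 and 8902.8. The lowest and the highest value were both controls, and the calorie-restricted mice lay between them. The log2 difference was -0.03 ± 0.19, smaller than its standard error, with an SD of 0.51 in control and 0.17 under calorie restriction. Among tested probe sets 93.87% had a smaller control SD than Wfdc2 and 26.52% a smaller calorie-restricted SD. Without control 1 the difference was -0.24 ± 0.12, the largest shift from leaving out 1 array. Control 1 also had the lowest summed signal of 21 distal nephron genes, 95306 against 109057 to 120748 in the other controls, and its part in the Wfdc2 value was not tested. The sign of the Wfdc2 difference depended on the arrays used, with 20 of 24 alternatives below 0. Among these 20 the filter, variance and block settings and averaged probe sets repeat the main value by construction.

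Wfdc15b was bright and narrow in range. The signal in control replicates 1 to 5 was 13717.0, 14149.1, 13349.7, 13468.0 and 16484.7. In calorie-restricted replicates 1 to 5 it was 17362.5, 15254.8, 13094.8, 17184.5 and 17227.2. Calorie-restricted replicates 1, 4 and 5 were above all controls, and calorie-restricted replicate 3 was below all of them. The log2 difference was 0.17 ± 0.10 as scaled by the authors. Quantile normalization gave -0.02 ± 0.096, so the sign depended on the scaling. The highest signal of all 10 mice was 1.33 times the lowest, against 37.2 times for Slpi and 2.40 times for Wfdc2.

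Wfdc1 was dim in every kidney. Control replicates 1 to 5 had signals of 24.5, 82.8, 29.6, 160.2 and 23.2, and calorie-restricted replicates 1 to 5 had 52.5, 102.3, 28.8, 43.9 and 141.1. Only control 4 and calorie-restricted replicate 5 exceeded the median signal of their arrays. Its mean fell under the brightness filter, so it was not among the tested probe sets. The log2 difference of 0.42 ± 0.60 was smaller than its standard error, and the groups overlapped.

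Of the 4 member probe sets 3 passed the brightness filter, and no test result is given for them. Over all tested probe sets 6.09% passed an adjusted p of 0.05 in limma, 659 higher and 712 lower under calorie restriction (316 higher and 1223 lower after median centring). The diets did not overlap for 1 of the 4 members, against 4.44% of all 45037 probe sets. The members were selected on this contrast, so these counts describe them only.

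The other WAP domain genes were mostly dim in the kidney. Of 19 listed genes 12 were measured, by 13 probe sets. Of these, 5 genes passed the brightness filter, and 0 passed the limma threshold in either direction, with 1 at an unadjusted p under 0.05. The background was 3.02% of tested genes lower and 3.08% higher past the threshold, and 3224 of 12196 at an unadjusted p under 0.05. The median log2 difference of the 5 was 0.05, beside -0.01 over 12196 tested genes. Under 5 of 24 alternatives 1 gene of the list passed.

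Wfdc17, also called Amwap and described in activated microglia and macrophages, was the brightest of them. Its signal in control replicates 1 to 5 was 768.7, 860.6, 710.8, 1190.2 and 1396.8, and in calorie-restricted replicates 1 to 5 it was 874.2, 486.6, 473.1, 493.5 and 680.4. As for Slpi, controls 4 and 5 had the highest values, but calorie-restricted replicate 1 was above 3 controls, so the groups overlapped. Its log2 difference was -0.71 ± 0.21 (adjusted p = 0.0606 in limma), short of the threshold. Without calorie-restricted replicate 5 it passed, and without controls 4 and 5 the difference was -0.41.

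Wfdc21, a secreted protein also called Wdnm1-like, differed by 0.64 ± 0.37 on the log2 scale, and Wap, the milk protein that gave the family its name, by 0.40 ± 0.25, neither past the threshold. Wfdc15a, the neighbour of Wfdc15b, differed by -0.09 ± 0.20. The 2 probe sets of Wfdc3 differed by 0.05 ± 0.17 and 0.15 ± 0.23. Wfdc5, Wfdc6a, Wfdc12, Wfdc18, Wfikkn1, Wfikkn2 and Eppin, an inhibitor of the epididymis, had mean signals of 20.2 to 102.5 in control kidney and were not tested. Wfdc6a, Eppin and Wfikkn1 were below the median signal of all 10 arrays.

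**Figure D2:**
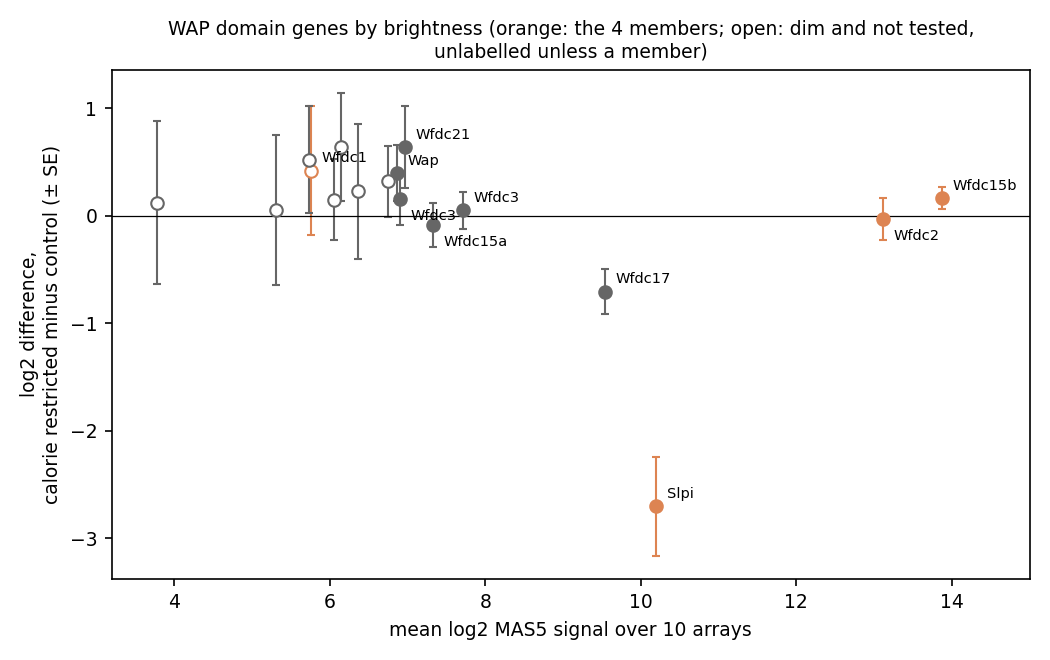
Log2 difference (calorie restricted minus control, ± SE, 5 mice per diet) against mean log2 MAS5 signal for the probe sets of 16 WAP domain genes; orange marks the 4 members, and open points were too dim to be tested. Slpi stands at -2.70, the next lowest is Wfdc17 at -0.71, and Wfdc2 and Wfdc15b are the brightest, near 0.

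The tested genes around Slpi on chromosome 2 had values unlike it. Its 20 nearest protein-coding neighbours, 10 on each side in the RefSeq gene order of GRCm38.p6, include Wfdc15b on one side and Wfdc2 on the other, with seminal vesicle protein genes next to Slpi. Of the 18 measured, 8 were tested, and 2 of these were lower under calorie restriction by value, Wfdc15a and Wfdc2, both within 1 standard error of 0. The dim, untested neighbours went both ways. Svs2 at -0.56 ± 0.46 and Matn4 at -0.52 ± 0.37 were the lowest of them, and Trp53tg5 at 1.17 ± 0.91 was the highest. Of the 8 tested neighbours 1 passed the limma threshold, against 3.08% higher and 3.02% lower over all tested genes. This was Sdc4, a cell surface heparan sulfate proteoglycan, and it was higher, 3268 ± 296 in control and 5214 ± 1241 under calorie restriction (SD, n = 5). Its log2 difference was 0.64 ± 0.15 (adjusted p = 0.0294), and 0.15 over replicates 4 and 5 of each group alone. Calorie-restricted replicates 1, 2 and 3, the arrays with the highest 3' to 5' ratios, had 6122.0, 6288.4 and 5903.4, and replicates 4 and 5 had 4146.1 and 3611.3. The part of RNA quality in that value was not tested. Sdc4 no longer passed without control replicate 2, 3 or 4 or without calorie-restricted replicate 1, 2 or 3.

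**Figure D3:**
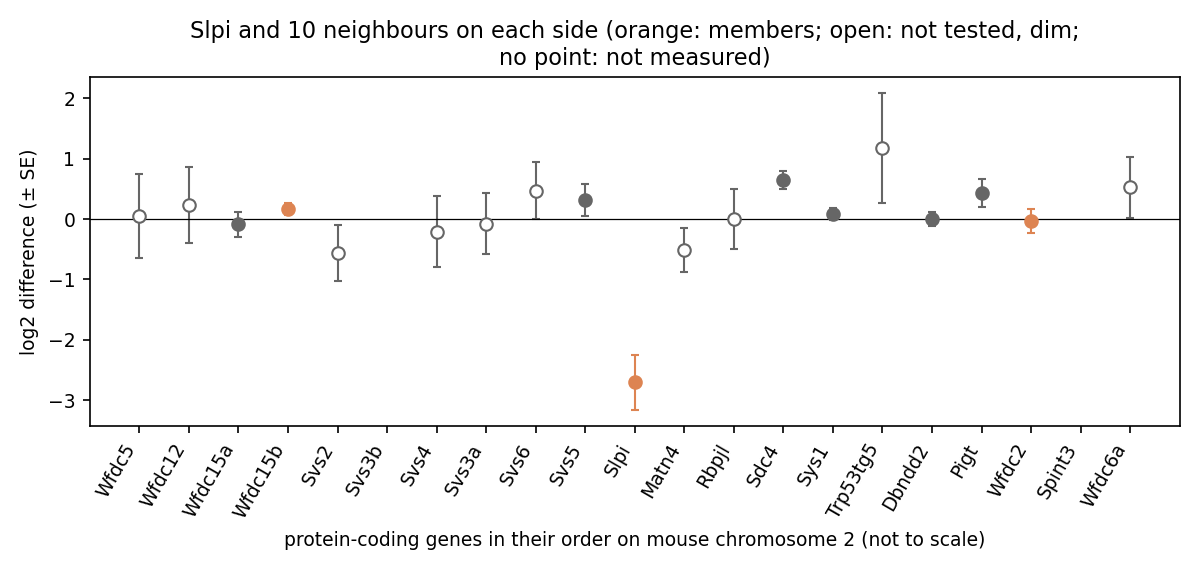
Log2 difference (± SE, 5 mice per diet) of Slpi and its 10 protein-coding neighbours on each side, in their order on chromosome 2 and not to scale; open points were too dim to be tested and 2 genes have no point because they were not measured. Slpi at -2.70 lies apart from Wfdc15b at 0.17 and Wfdc2 at -0.03.

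Gene lists around Slpi follow, and 0 of their 19 called genes held with the 3' to 5' ratio in the fit or without controls 4 and 5. In these fits 35 and 47 of 133 tested list genes had an unadjusted p under 0.05, beside 2984 and 5309 of all 22519 tested probe sets. The proteases that Slpi can meet were dim or did not pass the threshold. Of 12 listed serine proteases all were measured and 4 were tested, and 0 passed in limma. All 4 had an unadjusted p under 0.05, beside 3224 of all 12196 tested genes. Cathepsin G (Ctsg), a target of Slpi, was at or below the median signal of every array, as were Mcpt4, Tpsab1 and Gzmb. Prss8, or prostasin, which activates the epithelial sodium channel, differed by 0.31 ± 0.087 on the log2 scale (adjusted p = 0.0511) and passed only when control 1 was left out among the single arrays. Prss23, a target of Wfdc2 protein in earlier work, differed by -0.52 ± 0.16 (adjusted p = 0.0656). The summed signal of these 12 proteases was 8472 to 9684 in control and 10041 to 11056 under calorie restriction, so the sum, which Prss8 dominates, was higher in all 5 calorie-restricted mice. Under 5 of 24 alternatives 1 to 3 of the list passed.

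Among 6 genes for proteins that bind Slpi or cathepsins that cleave it, 1 fell and 0 rose, where 3.02% of all tested genes fell and 3.08% rose, with a median of -0.14. The one was cathepsin S, Ctss, a protease of macrophages that inactivates Slpi protein. Its mean signal was 5099 ± 907 in control and 3284 ± 519 under calorie restriction (SD, n = 5), and on the log2 scale it differed by -0.63 ± 0.13 (adjusted p = 0.0224 in limma). Its values in control were 4046.7 to 6476.5, with control 5 the highest, and 2755.4 to 4026.5 under calorie restriction, without overlap. The call was lost without control replicate 2 or without calorie-restricted replicate 1, 2 or 3. Progranulin, Grn, which Slpi protects from elastase, differed by 0.28, and the binding partners Anxa2 and Plscr1 by -0.14 and -0.43, none past the threshold.

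Other protease inhibitors lay on both sides of 0, with 11 of 21 tested genes below it and a median of -0.01. Of the 21, 4 rose and 1 fell, against 3.08% and 3.02% of all tested genes. The balance of calls depended on the setting, with 3 higher and 4 lower under the stricter filter, 2 and 4 after median centring, and 4 and 5 with array weights. Serpina1c, an alpha-1 antitrypsin gene whose near-identical copies the probes may not tell apart, rose by a log2 difference of 1.02 ± 0.23 (adjusted p = 0.0256). Serpinc1, antithrombin, rose by 1.01 ± 0.25 from a dim control mean of 152 ± 42.2 (adjusted p = 0.0350) and did not pass after quantile normalization (0.98). Spink1, a trypsin inhibitor, rose by 0.33 ± 0.077 (adjusted p = 0.0298) but differed by -0.01 after quantile normalization. Serpinb6b fell, with a log2 difference of -0.65 ± 0.15 (adjusted p = 0.0284). Each of these 4 calls was lost when control replicate 2 or calorie-restricted replicate 1 or 2 was left out. Without control 4 each was lost too, as were Serpina1c and Spink1 without control 3, Serpinc1, Spink1 and Serpinb6b without control 5, and Serpina1c and Serpinb6b without calorie-restricted replicate 3.

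Of 19 tested NF-kB pathway genes 2 fell and 0 rose, against 3.02% and 3.08% of all tested genes, with a median of -0.19. Nfkbiz, an inducible nuclear member of the inhibitor family of NF-kB, fell, with a log2 difference of -1.02 ± 0.21 (adjusted p = 0.0212), and the lipopolysaccharide co-receptor Cd14 fell with one of -0.73 ± 0.16 (adjusted p = 0.0248). Both calls were lost without control replicate 2 or 4 or calorie-restricted replicate 1, 2 or 3. The summed signal of the 24 measured genes was 30172 and 30069 in controls 4 and 5 and 21421 to 23242 in the other controls. Controls 4 and 5 were thus the highest of all 10 mice for the sum, as for Slpi, but calorie-restricted mice at 21226 to 25301 overlapped the other controls.

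Among secreted defence genes, of which S100a8, S100a9, Ltf and Lcn2 are also in the neutrophil list, 1 of 11 rose and 1 fell, against 3.08% and 3.02% of all tested genes. The median was -0.44, with 8 of 11 below 0. Pigr, the epithelial receptor that carries antibodies into secretions, rose by 0.57 ± 0.15 (adjusted p = 0.0406) and did not pass after quantile normalization (0.38). Lysozyme Lyz2, a gene of macrophages that is also in their marker list, fell, with a log2 difference of -1.11 ± 0.29 (adjusted p = 0.0402). Of 21 distal nephron genes 1 rose, the anion exchanger Slc4a1 (0.64 ± 0.17, adjusted p = 0.0466), and the median was 0.04. Pigr was lost without control replicate 2, 3 or 4 or calorie-restricted replicate 1, 2 or 3, and Lyz2 and Slc4a1 without any 1 array but calorie-restricted replicate 4 or 5. Lyz2 and Slc4a1 also did not pass after quantile normalization (adjusted p = 0.0524 and 0.0501 in limma).

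**Figure D4:**
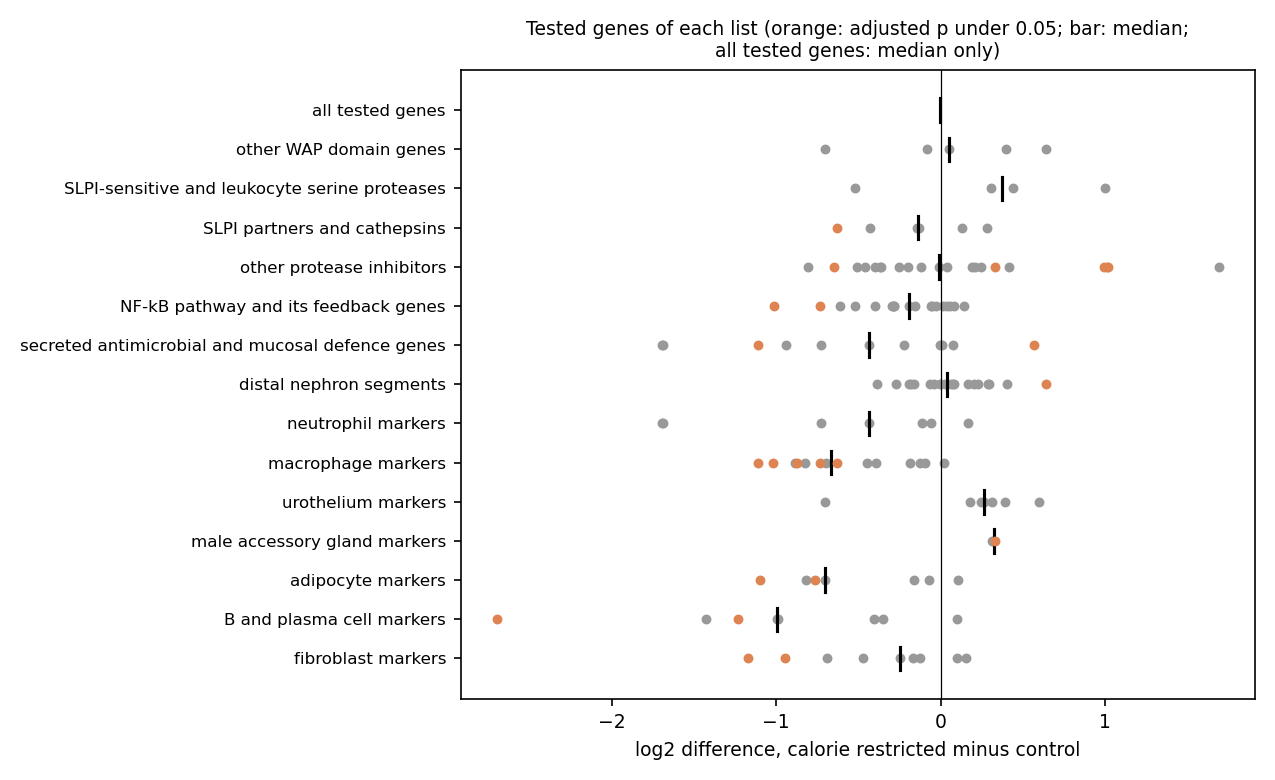
Log2 difference (calorie restricted minus control) of each tested gene in 14 lists, in orange where the adjusted p from limma was under 0.05, with a bar at the median of each list; for all 12196 tested genes only the median is drawn. Medians run from -0.99 for B and plasma cell markers to 0.37 for the serine proteases.

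Markers of cell types present in kidney were examined next, beginning with neutrophils, which can make Slpi. Of 15 neutrophil markers 12 were measured and 7 tested, and 0 passed the threshold in limma, with a median of -0.44. An unadjusted p under 0.05 was reached by 3, beside 3224 of all 12196 tested genes. Without control 1, the mouse with the lowest summed signal, 3 passed as lower (S100a8, S100a9 and Lcn2), and without calorie-restricted replicate 5 S100a9 did. The summed signal was 2583, 6825, 6575, 8672 and 12790 in control replicates 1 to 5 and 3029 to 5555 under calorie restriction. Camp and Cxcr2 were below the median signal of every array. S100a9 was 186.6, 1196.9, 667.2, 981.2 and 2291.5 in control replicates 1 to 5 and 108.1 to 639.5 under calorie restriction, a log2 difference of -1.69 ± 0.57 (adjusted p = 0.0855). Controls 5 and 4 had the 2 highest neutrophil sums as they had the highest Slpi, whereas control 1 had the lowest sum of all 10 mice with an Slpi signal of 1453.9, above every calorie-restricted mouse. The part of neutrophils in the Slpi difference was not tested.

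Macrophage markers fell in 5 of 14 tested cases and rose in 0, against 3.02% and 3.08% of all tested genes, with a median of -0.67. Ctss, Cd14 and Lyz2 among the 5 were also counted in lists above, so these lists are not separate observations. The count was 1 without control 2 or calorie-restricted replicate 1, 2 or 3, 2 without control 4 and 3 without control 5. Mrc1 was lost in each of these 6 cases, and after quantile normalization Mrc1 and Lyz2 did not pass. All 15 were measured, with Itgam below the median signal of every array. Mpeg1, a pore-forming protein, fell, with a log2 difference of -1.02 ± 0.17 (adjusted p = 0.0141). The summed signal was 23962 to 42958 in control, with controls 5 and 4 again the highest, and 17112 to 28360 under calorie restriction. Calorie-restricted replicate 5 had the highest macrophage sum of its group, 28360, above controls 1, 2 and 3, while its Slpi signal was 477.0. Fibroblast markers fell in 2 of 9 cases, Pdgfra and Lum, and B and plasma cell markers in 2 of 8, Pou2af1 and Iglv1, beside 3.02% of all tested genes. Controls 5 and 4 had the highest fibroblast sums, 17122 and 14917, of all 10 mice. Pdgfra and Mpeg1 passed with each array left out in turn. Lum was lost without control 2 or calorie-restricted replicate 2, and Pou2af1 without control 2 or 5 or calorie-restricted replicate 1, 2 or 3. Iglv1 was lost after quantile normalization and without any 1 array but calorie-restricted replicate 4 or 5. The B and plasma cell sum was 36568 to 61168 in control and 18824 to 38544 under calorie restriction. The part of these cells in the Slpi difference was not tested.

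**Figure D5:**
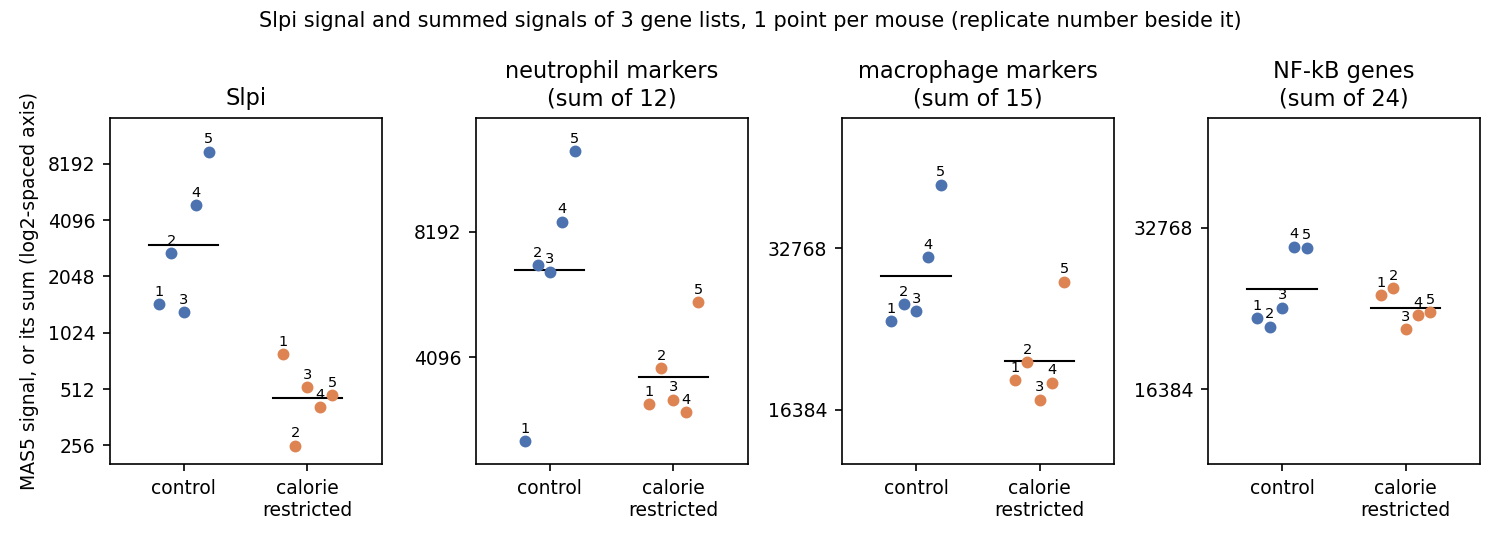
MAS5 signal of Slpi, and summed signals of 12 neutrophil markers, 15 macrophage markers and 24 NF-kB genes, on log2-spaced axes with 1 point per mouse, its replicate number, and bars at the geometric mean. Controls 4 and 5 are the 2 highest mice in each panel, but only the Slpi groups do not overlap.

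Urothelium, male accessory glands and adipocytes were checked with 3 more lists. Urothelium markers, a lining in which Slpi is also made, passed in 0 of 7 tested cases in limma. An unadjusted p under 0.05 was reached by 1, beside 3224 of all 12196 tested genes. The urothelium median was 0.26, and the sum was 1531 to 1993 in control and 1588 to 2614 under calorie restriction. Krt15 and Trp63 were below the median signal of every array. Of 9 measured markers of male accessory glands, where several WAP genes are abundant, Svs2, Svs4, Svs6, Pate4 and Pbsn were below the median of every array. Only 2 of these markers were tested and 1 rose, beside 3.08% of all tested genes. It was Spink1, also in the protease inhibitor list and bright in these kidneys at 24633 ± 913 in control. After quantile normalization Spink1 differed by -0.01. Adipocyte markers fell in 2 of 7 cases, beside 3.02% of all tested genes. They were Fabp4 (-0.77 ± 0.14, adjusted p = 0.0170) and Cidea (-1.10 ± 0.29, adjusted p = 0.0426). Cidea was lost after quantile normalization and without any 1 array but calorie-restricted replicate 3 or 5, and Fabp4 passed with each array left out in turn. Neither passed with the replicate block or over replicates 4 and 5 alone, where Fabp4 differed by -0.45. The adipocyte sum was 27245 to 40576 in control, with control 1 the highest, and 21780 to 29363 under calorie restriction. The part of these tissues in the Slpi difference was not tested.

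Genes with a pattern like each member were named by Pearson's r of log2 signal over the 10 arrays among 12196 tested genes, as a description. For Slpi the 6 most alike were Rasa3, a Ras GTPase-activating protein (r = 0.984), Plat, the tissue plasminogen activator (0.950), Arrdc3 (0.945), the amino acid transporter Slc38a2 (0.942), Cd47 (0.935) and Jpt2 (0.935). All 6 were lower under calorie restriction, and since the diets do not overlap for Slpi, r holds the diet difference. Their log2 differences of -0.33 to -0.61 were far smaller than that of Slpi. Rasa3 ran from 319.2 to 538.2 over the 10 mice, in nearly the order of Slpi (Spearman's rho = 0.976), with control 5 at the top. For Wfdc2 the most alike were Tm6sf2 (0.940), Tmem30b (0.921), Pus7l (0.920), Urb1 (0.916), the tetraspanin Tspan1 (0.912) and Arhgef5 (0.909). Control 1 was the lowest control in all 6, as in Wfdc2. For Wfdc15b they were Tmem213 (0.926), Pgrmc2, Arfip2, Ctxn2, Nphp4 and Cxxc5 (0.840). For the dim Wfdc1 they were Alg1 (0.933), Sertad4, Rrp15, Gm15545, Sycn and Ctnnb1 (0.845). No gene appeared in the lists of 2 members.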

How the data were processed

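Per the labels' protocols, total RNA of each kidney was extracted with Trizol and labelled as biotinylated cRNA for 1 Affymetrix array per mouse. Each deposited value is a MAS5 signal, a linear intensity that the authors computed with Expression Console, per the submitters' processing notes. Software versions and detection calls were not used here. Mean signal after trimming 2% from each end was 500.0 on every array, a scaling that can leave differences that vary with brightness. Probe sets were named from the platform annotation: 34958 of 45101 had 1 gene symbol, 932 had several and 9211 had none.

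Signals below 1 were set to 1 and log2 was taken. Probe sets with a mean log2 signal at or above 6.81, the median, were tested (22519, without 64 controls) with limma 3.58.1 in R 4.3.3 (lmFit, eBayes with trend, 2-sided) and Benjamini-Hochberg adjustment over all of them, at a threshold of 0.05. Standard errors of members and of dim genes come from the same fit without the filter. A gene stands by its brightest probe set. Sums of list signals are over brightest probe sets. P-values set the mean difference against the spread between 5 mice per diet, with variance information shared across probe sets. The number of mice limits the precision. The members and lists were chosen with earlier results of these data known.

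Named genes were the members, all measured WAP genes, per list up to 4 genes of the smallest p past the threshold or up to 2 of the smallest p where none passed, the 6 genes most alike to each member, and the neighbours of Slpi. Grn, Anxa2, Plscr1, Lcn2, Kap, Slc5a2, Slc34a1, Lrp2, Cubn and the genes named as dim in a list fall outside that rule and were named after their values were seen. Alternatives were other filters, quantile normalization, median centring, a pseudocount of 50, other variance settings, array weights, the replicate number as a block, adjustment for the 3' to 5' ratio, averaged probe sets per gene, a threshold of 0.10 and left-out arrays. RefSeq promoter sequences are those of GRCm38.p6. Protein sequences were not used here.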

Additional observations from a re-analysis of the deposited data

Results flagged for a closer look

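The check for lone arrays covered 65 probe sets in both groups. They were those of the members, the other WAP genes, genes taken per list by smallest p and the genes most alike. Of the 130 groups 9 held an array far from the other 4 by Dixon's ratio on log2 signal. Chance gives about 1 in 20. Wfdc15b was 16484.7 in control 5, against 13349.7 to 14149.1 in the other controls. Wfdc18 was 29.4 in calorie-restricted replicate 4 (others 96.6 to 133.7), and Wfikkn1 was 68.0 in calorie-restricted replicate 1 (others 8.6 to 12.7), both at dim signals. Prss8 was 6554.4 in control 1 (others 5465.8 to 5650.5). The macrophage genes Lyz2 and Mrc1 were 4620.2 and 530.6 in calorie-restricted replicate 5 (others 1291.8 to 1767.7 and 255.3 to 315.3). Tm6sf2, Tmem30b and Tspan1, named for their likeness to Wfdc2, were 277.0, 942.7 and 601.1 in control 1, against 627.8 to 801.8, 1546.4 to 1840.8 and 1307.3 to 1615.9 in the other controls.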

How the results depend on the processing

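Over 24 alternatives Slpi had log2 differences of -3.95 (replicates 4 and 5 of each group alone) to -1.91 (without controls 4 and 5, added after the data were seen). With 1 array left out they were -3.00 to -2.29. Their shared sign is no test, since Slpi was chosen as lower and its groups do not overlap, so leaving out arrays could not reverse it. The filter, variance and block settings and averaged probe sets leave the difference of each member unchanged by construction. Wfdc15b was 0.14 to 0.28 in all alternatives but median centring (0.07) and quantile normalization (-0.023), with 0.14 to 0.24 when 1 array was left out. Wfdc2 stayed within -0.24 to 0.09, and Wfdc1 within 0.13 to 0.86. Of 22519 probe sets 1371 passed the threshold in limma. This count was 287 with no filter, 750 after quantile normalization, 243 without the trend, 2292 with array weights, 9 with the 3' to 5' covariate, 198 over replicates 4 and 5 alone and 3246 at a threshold of 0.10. It was 125 to 2481 with 1 array left out. In the settings added later it was 0 without controls 4 and 5 (5309 at an unadjusted p under 0.05) and 1 for calorie-restricted replicates 4 and 5 against all controls. Of the list genes 19 passed, and under the same settings, in the same order without array weights, 6, 11, 4, 0, 5 and 38 did, with 3 to 30 when 1 array was left out. In both settings added later 0 list genes passed (47 and 29 of 133 list genes at an unadjusted p under 0.05, and 35 with the covariate). Over all 22519 tested probe sets 5309, 2413 and 2984 had such a p. Of the 19 calls 3 to 19 still passed with 1 array left out, the fewest without control replicate 2 or calorie-restricted replicate 2. Same-numbered deviations correlated at -0.141 to -0.087, so mice of the same replicate number showed no likeness in expression. Whether the number pairs the mice by design cannot be told from these values. With the replicate block 127 probe sets and 10 list genes passed. The cause of these shifts was not tested. Low signal limits Wfdc1 and the dim WAP genes.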
